A study of Mus musculus with 6 samples.

Results

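The genes described here encode the heterogeneous nuclear ribonucleoproteins (hnRNPs) and the core proteins of the spliceosome, measured as RNA in mouse immature dendritic cells with and without fluid shear stress (FSS). They were chosen by name alone: every gene whose symbol begins with Hnrnp, Snrp, Sf3a, Sf3b or Prpf and which has values in the expression table. The rule found 55 of 18071 genes with values, of which 21 were hnRNP genes, 12 Snrp genes, 3 Sf3a genes, 6 Sf3b genes and 13 Prpf genes. SR proteins, and spliceosome genes whose symbols begin otherwise (Snrnp70 among them), are not members.

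Both groups came from bone marrow of male C57BL/6 mice aged 7 weeks, cultured for 7 days with GM-CSF at 20 ng/ml and IL-4 at 10 ng/ml and then sorted on CD11c, a surface integrin of dendritic cells. The FSS group had 10 dyn/cm2 for 3 h in a device that turns a cone above the dish, and the static group was cultured without flow. Each group held 3 libraries, and the submitters numbered them 1 to 3 in both. The comparison asks which RNAs differ between cells under flow and cells at rest. Nothing in the labels says that the libraries came from separate animals or cultures, so the p-values rest on the spread between libraries alone, and that spread may be technical.

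An intron is removed from a new transcript by the spliceosome, which assembles anew on each intron from small nuclear ribonucleoproteins (snRNPs). An snRNP is a small RNA with proteins of its own and, in most of them, a ring of Sm proteins. U1 recognises the start of the intron, and U2 with its SF3A and SF3B subcomplexes the branch point. The tri-snRNP of U4, U6 and U5 brings in the catalytic core around PRPF8. The hnRNPs coat new transcripts and influence which exons are used, how RNA leaves the nucleus and how stable it is. In immune cells these proteins are best known for setting the isoforms of receptors and signalling proteins, such as those of CD45 by hnRNP L and hnRNP LL.

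Values are expression taken as FPKM (fragments scaled by transcript length and library size), and a library summed to between 413898 and 470596 FPKM. Of 9 dendritic cell markers 7 were detected at 1 FPKM or more, with Itgax, which encodes CD11c, at 397 to 599 FPKM, while Flt3 and Cd209a stayed under 1 FPKM in all 6 libraries. The summed level of 7 macrophage and monocyte markers was 658 to 781 FPKM in static and 734 to 854 FPKM in FSS libraries, and that of 5 neutrophil markers 256 to 430 and 213 to 342 FPKM. All markers of T cells, natural killer cells and erythroid cells were under 1 FPKM in every library, and those of B cells summed to 5.03 FPKM at most. The 4 markers of mast cells or basophils summed to 1.24 to 4.47 FPKM in static and 1.51 to 4.48 FPKM in FSS libraries. In bulk samples fewer cells of a type and less RNA per cell cannot be told apart, and the part of other cells in the results below was not tested. The libraries numbered 3 stood apart from the other 4 in both groups. With the group in the model, 1496 of 10899 genes were higher and 3188 lower in number 3 than in numbers 1 and 2 (limma, adjusted p under 0.05).

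Nearly all of the splicing genes were expressed. Under FSS none passed in the fit that ignores replicate numbers, and a minority rose or fell, mostly by less than 1.5-fold, in the fit that compares within numbers. Of the 55 members, 52 reached 1 FPKM in at least 3 libraries and were tested. The untested ones were Snrpn, which encodes the tissue-restricted Sm protein SmN and stayed between 0 and 0.02 FPKM, the U1-associated gene Prpf40b (0.26 to 0.6 FPKM) and the pseudogene Hnrnpa1l2-ps2 (0.03 to 0.19 FPKM). On the log2(FPKM + 1) scale, on which the change of low genes is understated, differences ran from -0.73 in Sf3a2 to 0.63 in Hnrnph3. Only 4 members differed by more than 1.5-fold on that scale, namely Sf3a2, Prpf31, Hnrnpab and Hnrnph3, and this was 7.69% of them against 11.7% of all genes tested.

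Without regard to the replicate numbers, none of the 52 passed (limma over 10899 genes, Benjamini-Hochberg adjusted p under 0.05), where 0.853% of all genes tested were higher and 0.862% lower under FSS. At an unadjusted limma p under 0.05 there were 7 of the 52, against 18.1% of all genes. Libraries of one number deviated together from their group means, so the number was also entered as a block, which compares FSS with static within each number. With the block 3 members rose (Hnrnph3, Sf3b1 and Hnrnpc), 14 fell and 35 did not pass. The background was 7.73% higher and 25.1% lower over all genes, and the members stood at 5.77% and 26.9%. The median member was 0.15 log2 lower under FSS and the median of all genes tested 0.12 lower. Scaling each library by its median ratio moved the median of all genes to 0.02 and that of the members to 0.01. It turned 11 of the 52 differences from lower to higher, those of Hnrnpa1, Hnrnph2, Hnrnpm, Hnrnpul1, Snrpa, Snrpe, Snrpg, Sf3b2, Sf3b5, Prpf6 and Prpf8. With the block and this scaling 10 members rose and 9 fell, against 19.2% and 16.8% of all genes. All 3 rises of the unscaled fit were kept, and over all genes 839 of 842 rises were (7.7% of genes tested). As the scaling moved differences upward, a rise was kept almost by construction. Over all genes 1828 of 2739 falls were kept (16.8% of genes tested). Of the 14 member falls 9 were kept: Hnrnpab, Hnrnpa0, Hnrnpu, Hnrnpr, Snrpa1, Sf3a2, Sf3b4, Prpf31 and Prpf38a. Calls below are with the block unless another fit is named.

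**Figure D1:**
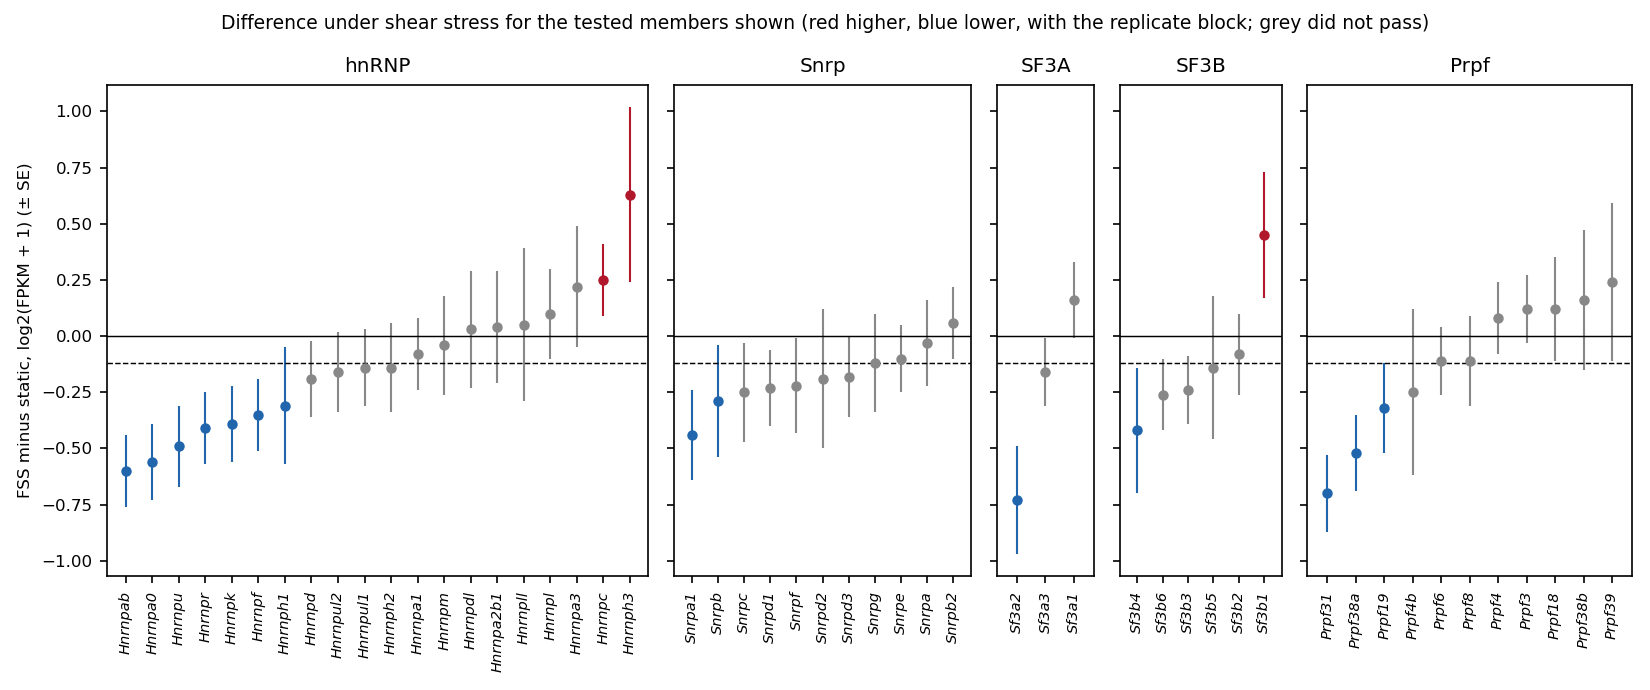
Difference between FSS and static for the 52 tested members except 1, in 5 panels by gene group, on the log2(FPKM + 1) scale. Points are fitted differences and bars their SE in the fit without the block, colours give the calls with the block, and the dashed line is the median of all genes tested (-0.12); the points run from Sf3a2 at -0.73 to Hnrnph3 at 0.63.

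Among the hnRNPs 2 genes rose, 7 fell and 11 did not pass, of 20 tested, where 7.73% of all genes rose and 25.1% fell. In the A/B type, whose proteins bind new transcripts widely, 2 of 7 tested members fell, 0 rose and 5 did not pass. That is near the share of all genes. Hnrnpab, which binds RNA and single-stranded DNA, stood at 91.0, 101 and 108 FPKM in static libraries 1 to 3 and at 60.2, 69.5 and 66.4 FPKM under FSS. The groups did not overlap, and FSS was at 0.654 times the static mean (log2 difference -0.60 ± 0.16, SE; limma adjusted p = 0.107 without and 0.00269 with the block). Hnrnpa0, which binds AU-rich elements of inflammatory transcripts, was at 34.5, 34.0 and 43.7 FPKM in static and 23.4, 27.2 and 24.3 FPKM in FSS libraries, again without overlap (log2 difference -0.56, adjusted p = 0.0103 with the limma block). Groups that did not overlap, with FSS lower, were found in 20.4% of all genes tested. Hnrnpa1, the best studied of the type and an antagonist of SR proteins at splice sites, gave 125, 131 and 137 FPKM in static and 120, 137 and 115 FPKM in FSS libraries, and the groups overlapped (adjusted p = 0.494 with the limma block). The level of Hnrnpab relative to Hnrnpa1 in the same library, a ratio that no library scaling can move, was 0.726 to 0.789 in static and 0.504 to 0.578 in FSS libraries. For Hnrnpa0 relative to Hnrnpa1 it was 0.26 to 0.319 and 0.196 to 0.212. Reads of Hnrnpa1 may be shared with its processed copies, so its own values are uncertain. The other A/B members, Hnrnpa2b1, Hnrnpa3, Hnrnpdl and Hnrnpd, the last known for binding AU-rich elements, gave log2 differences of -0.19 to 0.22 and did not pass. Hnrnpa3 was higher with the block once the libraries were scaled (limma adjusted p = 0.0162).

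Hnrnpu, Hnrnpr, Hnrnpk and Hnrnpf, of other types, fell without overlap between the groups. Of all genes tested, 20.4% were lower without overlap. Hnrnpu, a nuclear matrix protein that also binds chromatin, was at 99.4, 119 and 98.2 FPKM in static and 75.8, 85.4 and 63.7 FPKM in FSS libraries (log2 difference -0.49 ± 0.18, SE; limma adjusted p = 0.202 without and 0.0056 with the block). Hnrnpr, a relative of Syncrip, lay at 11.6 to 13.4 FPKM in static and 8.04 to 10.3 FPKM in FSS libraries (limma adjusted p = 0.0145 with the block). Hnrnpk, which binds C-rich RNA through KH domains, stood at 166 to 184 FPKM in static and 115 to 151 FPKM in FSS libraries, and Hnrnpf, which binds G-rich runs, at 175 to 196 and 136 to 161 FPKM. The calls on Hnrnpk and Hnrnpf were lost with median-ratio scaling (limma adjusted p = 0.0746 and 0.134 with the block). The relatives of Hnrnpu, Hnrnpul1 and Hnrnpul2, gave log2 differences of -0.14 and -0.16 and did not pass (limma adjusted p = 0.252 and 0.248 in the unscaled fit with the block). Hnrnpm and Hnrnph2 gave -0.04 and -0.14 log2 and did not pass either.

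Hnrnpc and Hnrnph3 were the hnRNPs that rose. Hnrnpc forms a tetramer that binds U-rich runs and measures transcript length, and it was at 183, 195 and 164 FPKM in static and 234, 214 and 196 FPKM in FSS libraries. All FSS libraries lay above all static ones, by 1.19-fold in the means (log2 difference 0.25 ± 0.16, SE; limma adjusted p = 0.488 without and 0.0469 with the block). Hnrnph3, a small member of the F/H type, lies outside the rule for named genes and was picked once its values were known. It stood at 12.1, 14.6 and 7.62 FPKM in static and 27.0, 22.0 and 9.27 FPKM in FSS libraries. Its level was higher in each pair, by 1.09, 0.56 and 0.25 log2, but FSS library 3 lay below static libraries 1 and 2 (limma adjusted p = 0.0186 with the block). Its relative Hnrnph1, picked likewise, moved the other way, from a mean of 43.2 to 35.0 FPKM (limma adjusted p = 0.046 with the block, 0.199 once scaled). The ratio of Hnrnph3 to Hnrnph1 was 0.229 to 0.28 in static and 0.384 to 0.687 in FSS libraries. That of Hnrnph3 to Hnrnpf, of the same type, was 0.041 to 0.0742 and 0.0666 to 0.199, and the groups overlapped. Hnrnpl and Hnrnpll, the pair named above for CD45, gave log2 differences of 0.10 and 0.05 without a call (limma adjusted p = 0.358 and 0.749 with the block). Hnrnpl, at 72.9 to 108 FPKM in static and 80.3 to 108 FPKM in FSS libraries, was called higher with the scaling (limma adjusted p = 0.041 with the block).

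**Figure D2:**
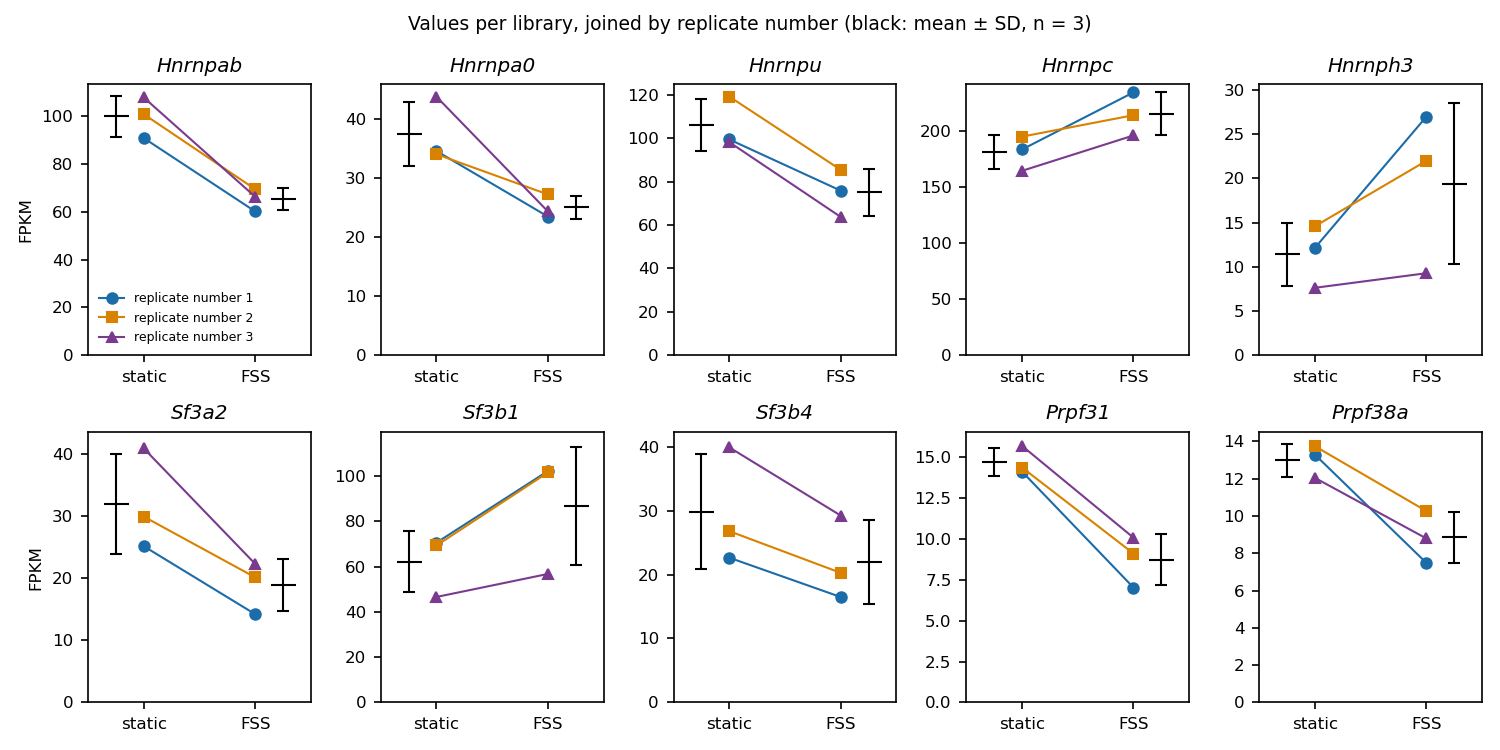
FPKM of 10 members in each library, static on the left and FSS on the right of each panel, with lines that join libraries of one replicate number and black marks for mean ± SD (n = 3 per group). Hnrnpab, Hnrnpa0, Hnrnpu, Sf3a2, Prpf31 and Prpf38a were lower under FSS without overlap, Hnrnpc was higher without overlap, and for Hnrnph3, Sf3b1 and Sf3b4 the groups overlapped although each line runs one way.

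Most Snrp genes stood slightly lower under FSS and few passed. Of 11 tested, none rose, 2 fell and 9 did not pass, with a median of -0.19 log2, and 10 of the 11 had a negative difference (7 of 11 with median-ratio scaling). Over all genes tested 25.1% fell, the median was -0.12, and 7168 of 10899 had a negative difference (5144 with the scaling). Snrpa1 encodes the U2 protein that pairs with the product of Snrpb2 on the U2 RNA. It was at 11.8, 17.0 and 15.3 FPKM in static and 8.65, 11.3 and 11.7 FPKM in FSS libraries, with no overlap (log2 difference -0.44 ± 0.20, SE; limma adjusted p = 0.292 without and 0.0121 with the block). Snrpb2 itself was at 16.4 to 20.1 FPKM in static and 19.1 to 20.3 FPKM in FSS libraries (log2 difference 0.06; limma adjusted p = 0.652 with the block).

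In the Sm ring the difference was small in every subunit. Its 7 tested genes, Snrpb, Snrpd1, Snrpd2, Snrpd3, Snrpe, Snrpf and Snrpg, gave log2 differences between -0.29 and -0.10, where the median of all genes tested was -0.12. Lower in all 3 pairs were 6 of the 7, against 47.3% of all genes tested. With the scaling 5 of the 7 differences stayed below 0. Snrpb, which encodes SmB, was at 65.4, 71.9 and 102 FPKM in static and 52.2, 58.5 and 84.7 FPKM in FSS libraries. Each pair fell by a like amount (-0.32, -0.29 and -0.26 log2), while the groups overlapped because library 3 was high in both. The call held with the block (limma adjusted p = 0.0306) and was lost with the scaling (0.305). Snrpd1 and Snrpe were lower without overlap, as were 20.4% of all genes tested, but did not pass (limma adjusted p = 0.108 and 0.405 with the block). The U1 proteins Snrpa and Snrpc gave -0.03 and -0.25 log2 and did not pass.

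In SF3A, the trimer that joins U2 at the branch point, 1 of the 3 subunits fell and the others did not pass. Over all genes 25.1% fell and 7.73% rose. Sf3a2, which encodes SF3A66, was at 25.1, 29.9 and 40.9 FPKM in static and 14.2, 20.1 and 22.3 FPKM in FSS libraries. Every FSS library lay below every static one, and the mean was 0.59 times that of static (log2 difference -0.73 ± 0.24, SE; limma adjusted p = 0.17 without and 0.00264 with the block, 0.00139 once also scaled). Sf3a1, which holds the trimer together, stood at 17.2, 21.8 and 22.8 FPKM in static and 21.4, 22.9 and 24.6 FPKM in FSS libraries (limma adjusted p = 0.244 with the block, and higher with the scaling at 0.0245). Sf3a3, which ties the trimer to U2, gave 12.6 to 14.8 and 11.4 to 12.6 FPKM (adjusted p = 0.207 with the limma block). Within a library Sf3a2 was at 1.37 to 1.79 times the level of Sf3a1 in static and 0.664 to 0.906 times in FSS cells, so it lay above Sf3a1 in every static and below it in every FSS library. Relative to Sf3a3 it was 1.99 to 2.98 and 1.25 to 1.79, again without overlap. The ratio of Sf3a1 to Sf3a3 was 1.36 to 1.67 in static and 1.81 to 1.98 in FSS libraries. All ratios here were picked with the values in view and are given without a test, since 3 libraries against 3 allow no two-sided exact permutation p under 0.1.

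SF3B, the larger partner that holds the branch adenosine, had members on both sides. Of 6 tested, 1 rose and 1 fell, where 7.73% of all genes rose and 25.1% fell. Sf3b1, its scaffold and the most often mutated splicing gene in myelodysplasia, gave 70.6, 69.3 and 46.6 FPKM in static and 102, 102 and 56.7 FPKM in FSS libraries. It was higher in each pair, by 0.53, 0.54 and 0.28 log2, and library 3 was lowest in both groups (limma adjusted p = 0.463 without and 0.0099 with the block, 0.000885 once also scaled). Sf3b4, an RNA-binding subunit that contacts the intron upstream of the branch point, fell in the block fit, from 22.6, 26.8 and 39.9 FPKM to 16.5, 20.3 and 29.2 FPKM (limma adjusted p = 0.0112), with pair differences of -0.43, -0.39 and -0.44 log2. Here library 3 was highest in both groups. Sf3b3 and Sf3b6 did not overlap between groups, at 46.2 to 49.1 against 38.9 to 42.2 FPKM and at 34.6 to 36.0 against 25.5 to 31.5 FPKM, yet neither passed (limma adjusted p = 0.068 and 0.0771 with the block). Over all genes tested 20.4% were lower without overlap. Sf3b2 and Sf3b5 gave -0.08 and -0.14 log2. Relative to Sf3b1 in the same library, Sf3b2, Sf3b3, Sf3b4 and Sf3b5 overlapped between the groups, and Sf3b6 was lower under FSS without overlap. For Sf3b4 this ratio was 0.321 to 0.856 in static and 0.161 to 0.515 in FSS libraries.

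**Figure D3:**
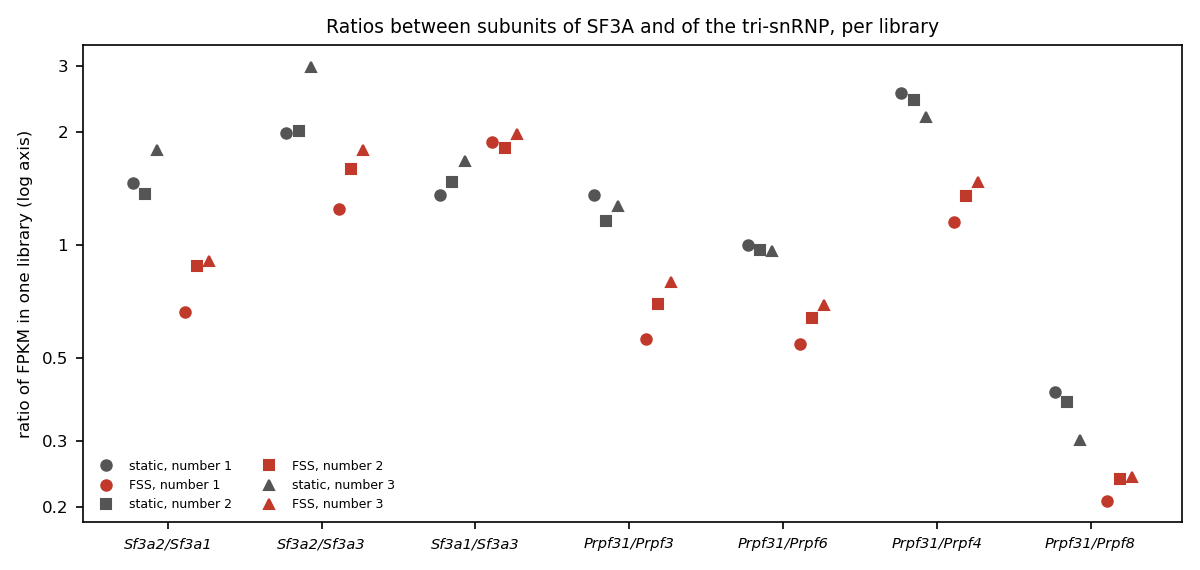
Ratio of the FPKM of 2 subunits in the same library (log axis) for SF3A and for Prpf31 against other tri-snRNP genes, static in grey and FSS in red, with one marker shape per replicate number. Sf3a2 to Sf3a1 lies at 1.37 to 1.79 in static and 0.664 to 0.906 in FSS libraries, and all 4 ratios of Prpf31 are lower in FSS without overlap.

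Most of these SF3A and SF3B genes share a short sequence before the start site, and it is shown for that reason. Promoter sequence of RefSeq (build GRCm38.p6) was found for 47 of the 55 members, and for 7 of the 9 SF3A and SF3B genes. It was missing for Sf3b4, which fell, and for Sf3b5. In the 250 bases before the start site the word CCGGAAG, the core that ETS-family factors bind, was present on either strand in 6 of the 7. It is in capitals below with 10 bases on each side, read 5′ to 3′ on the strand of the gene, and appears as CTTCCGG where it lies on the other strand:
Sf3a1 (chr11:4160337-4160363, + strand): gagggcgggaCCGGAAGtgctcccgcg
Sf3a2 (chr10:80798649-80798675, + strand): gcctttgctcCCGGAAGggatcgcttc
Sf3a3 (chr4:124714761-124714787, + strand): ccccaagacaCTTCCGGgacacgcgga
Sf3b2 (chr19:5295452-5295478, - strand): gattacgcaaCCGGAAGtttctggaag
Sf3b3 (chr8:110847016-110847042, - strand): ccggtgggcgCTTCCGGgcttgcgagg
Sf3b6 (chr12:4817528-4817554, + strand): ggtccgcaatCCGGAAGcgttctggag
Sf3a2 (fell) and Sf3a1 (not passing) both hold it, 76 and 7 bases before their start sites. Sf3b6 holds a copy on each strand, 70 and 85 bases before its start site, and Sf3b1, which rose, has none in this window. A link between the word and the difference under FSS was not tested. Over all 47 members 14, or 29.8%, hold the word. The share was 16.7% among the 8802 tested genes with a promoter and 7.83% among all 27025 genes with promoter sequence. Of these 14 members, 6 are the SF3A and SF3B genes shown because they carry the word, and the 47 include untested members. A match describes the letters and shows no binding.

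The PRP genes act later, in the tri-snRNP and its activation. Of 12 tested, none rose, 3 fell and 9 did not pass, where 7.73% of all genes rose and 25.1% fell. With the scaling 4 rose and 2 fell, against 19.2% and 16.8% of all genes. Prpf31, which clamps the U4 RNA in the tri-snRNP and is mutated in a form of retinitis pigmentosa, was at 14.1, 14.4 and 15.7 FPKM in static and 7.02, 9.1 and 10.1 FPKM in FSS libraries. The groups did not overlap, with pair differences of -0.91, -0.60 and -0.59 log2 (log2 difference -0.70 ± 0.17, SE; limma adjusted p = 0.0912 without and 0.00344 with the block). It was the one member to pass in a fit without the block, which happened when FSS replicate 3 was left out (limma adjusted p = 0.0449). Prpf38a, needed to activate the assembled spliceosome, went from 13.3, 13.8 and 12.1 FPKM to 7.49, 10.3 and 8.8 FPKM (limma adjusted p = 0.161 without and 0.011 with the block). Prpf19, the ubiquitin ligase of the complex named after it, was at 7.43 to 10.6 FPKM in static and 5.78 to 8.63 FPKM in FSS libraries, and the groups overlapped. Its call (limma adjusted p = 0.034 with the block) was lost with the scaling (0.167).

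Among the Prpf genes of the tri-snRNP, Prpf3, Prpf4, Prpf6 and Prpf8 did not pass in this fit. Prpf8, the largest protein of the catalytic core, was at 34.9, 37.6 and 51.9 FPKM in static and 33.8, 38.3 and 41.7 FPKM in FSS libraries (limma adjusted p = 0.434 with the block). Prpf3, Prpf4 and Prpf6 gave log2 differences of 0.12, 0.08 and -0.11. Prpf3 lay higher in every FSS library than in any static one, at 12.5 to 13.0 against 10.4 to 12.4 FPKM, and was called higher only once scaled (limma adjusted p = 0.375 with the block, 0.0374 with both). The level of Prpf31 relative to Prpf6 in a library was 0.962 to 1 in static and 0.545 to 0.691 under FSS, and relative to Prpf3 it was 1.16 to 1.36 and 0.561 to 0.795. The kinase gene Prpf4b did not pass (limma adjusted p = 0.166 with the block). Prpf38b, a paralog of Prpf38a, gave log2 differences of 0.27, 0.16 and 0.04 in the pairs and passed only once scaled (limma adjusted p = 0.231 and 0.0185). Prpf18, which acts in the second step of splicing, and the U1-associated Prpf39 likewise passed only once scaled, as higher (0.045 and 0.00742).

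Pair by pair, 29 members were lower in all 3 pairs and 9 higher in all 3, against 47.3% and 17.1% of all genes tested, which are 55.8% and 17.3% of the 52 members. The groups did not overlap in 14 members that were lower and 2 that were higher, where 20.4% and 5.1% of all genes did so. The median member stood at -0.12, -0.09 and -0.26 log2 in pairs 1, 2 and 3, and the median of all genes at -0.08, -0.07 and -0.22. Summed over all members, the FPKM came to 2351, 2604 and 2482 in static and 2282, 2444 and 2110 in FSS libraries, or 0.527% to 0.603% and 0.48% to 0.58% of the library.

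Lists of 3 kinds of related genes were set beside the members. Of 89 tested genes of other snRNP and spliceosome proteins, none passed without the block (12 at an unadjusted limma p under 0.05, where 18.1% of all genes were), and with it 2 rose and 26 fell. Scaled, 4 rose and 11 fell. For these lists as for the members, the shares of all genes were 7.73% higher and 25.1% lower with the block, and 19.2% and 16.8% once scaled. Ddx42, an RNA helicase that binds SF3B, went from 14.1 to 17.8 FPKM down to 6.53 to 11.5 FPKM, and Ppil2, a cyclophilin of the spliceosome, from 19.8 to 20.1 FPKM down to 13.1 to 14.2 FPKM (0.00339 and 0.00649, limma adjusted p of the block fit). Magohb, a core protein of the exon junction complex, went from a mean of 4.86 to 2.91 FPKM (0.0103). Of 20 tested hnRNP-type proteins under other symbols none passed without the block (2 at an unadjusted limma p under 0.05), and with it 6 fell and none rose (scaled, 2 fell and 3 rose). Among them were Syncrip, also called hnRNP Q, and the cold-inducible Rbm3, at 0.657 and 0.78 times the static mean (limma adjusted p = 0.00746 and 0.0201 with the block), though Rbm3 did not pass once scaled (0.185).

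Among genes that assemble snRNPs, Gemin4 and Wdr77 fell even without the block. This machinery, the SMN complex with its Gemin proteins and the methylosome of PRMT5, loads the Sm ring onto the small nuclear RNAs that carry it. Of 16 tested, 2 fell without the block and none rose, and with it 7 fell and none rose, where 25.1% of all genes were lower; scaled, 6 fell and 2 rose. Gemin4 was at 3.86, 3.91 and 4.45 FPKM in static and 0.93, 1.12 and 1.06 FPKM in FSS libraries, 0.255 times the static mean (log2 difference -1.32 ± 0.14, SE; limma adjusted p = 0.0133). Wdr77, the partner of PRMT5 in the methylosome, was at 9.21, 9.31 and 11.2 FPKM in static and 4.17, 4.79 and 5.29 FPKM in FSS libraries (log2 difference -0.92 ± 0.16, SE; limma adjusted p = 0.0423). For both genes the groups lay far apart. The call on Gemin4 was lost with no filter on low genes (limma adjusted p = 0.0841) and without static replicate 1 or 2 or FSS replicate 1 or 2 (0.0619 to 0.0857). That on Wdr77 was lost with no filter (0.0964), with median-ratio scaling (0.0702) and without static replicate 1, 2 or 3 or FSS replicate 1 or 2 (0.121 to 0.183). Coil, the marker protein of Cajal bodies where snRNPs mature, fell with the block (2.18 to 2.64 against 1.24 to 1.31 FPKM; limma adjusted p = 0.00477). Prmt5, Gemin5, Ddx20 and Gemin7, picked for this result, were the other falls of this fit, with log2 differences of -0.50, -0.47, -0.43 and -0.37.

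Members differed between the libraries numbered 3 and the others about as often as all genes did. With the group in the model, 8 members were higher and 14 lower in the libraries numbered 3 than in numbers 1 and 2 (limma adjusted p under 0.05). These are 15.4% and 26.9% of the 52 members, against 13.7% and 29.3% of all genes tested. The lower ones included Hnrnph3 (-1.02 log2), Prpf4b (-0.96), Prpf39 (-0.91), Hnrnpll (-0.88), Prpf38b (-0.80) and Sf3b1 (-0.70). Among the higher ones were Sf3b5 and Snrpd2 (0.79 each), Sf3b4 (0.66), Snrpb (0.58) and Sf3a2 (0.47). These examples were picked by their values. Of the hnRNPs 8 were lower and 1 higher, and of the Snrp genes none was lower and 3 were higher. Base composition moved with this difference. In the longest annotated transcript (GENCODE M21), G and C made up a median of 40.9% in the 14 lower members and 51.9% in the 8 higher ones, and their share correlated with the difference across the 52 members (Spearman rho 0.75, Pearson r 0.68). Across 10709 tested genes with a transcript the correlations were 0.49 and 0.47. Transcript length moved with it too, with a median of 4151 bases in the lower and 2446 bases in the higher members, and a Spearman rho of -0.31 in the members and -0.43 over all genes. The correlations of base composition with FSS minus static were -0.19 and -0.31 in the members and -0.03 and -0.02 over all genes. Genes of one library share its depth and preparation and are not independent, so these are descriptions, and the part of base composition or length in the shear difference was not tested. Sf3a2 had the highest share, 62.2%, and Sf3b1 had 42.1%.

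**Figure D4:**
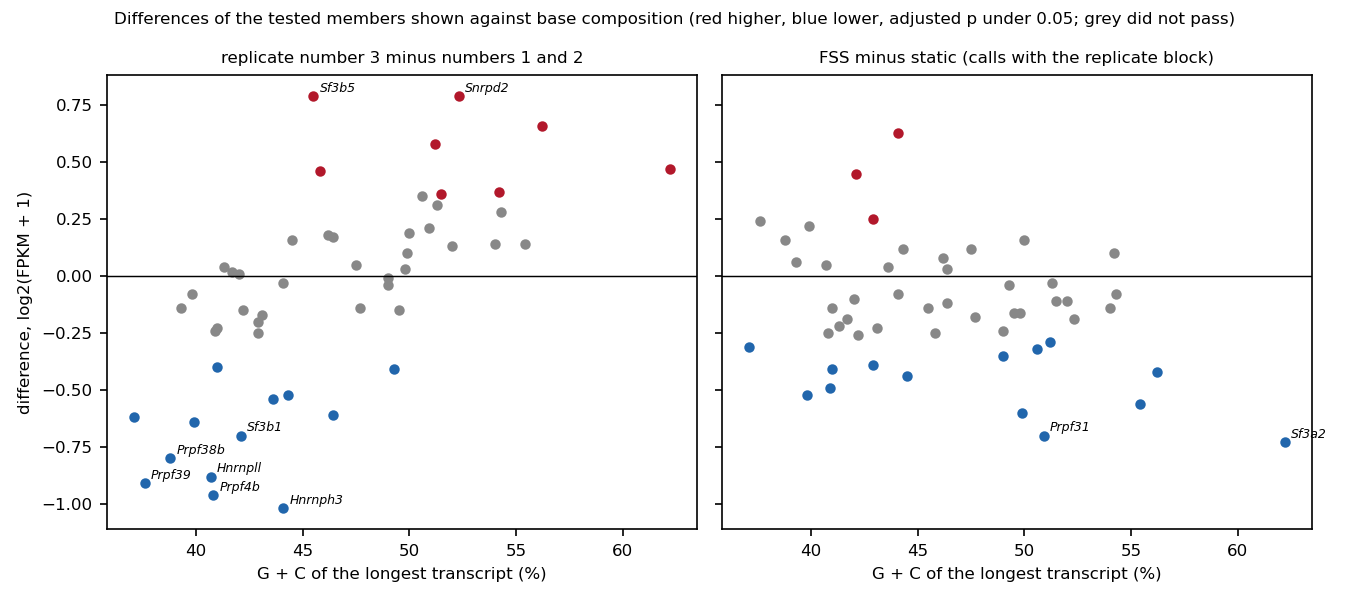
Share of G and C in the longest transcript (x axis, percent) against the difference on the log2(FPKM + 1) scale for the 52 tested members except 1, on the left between replicate number 3 and numbers 1 and 2, on the right between FSS and static. On the left the Spearman rho is 0.75, with the lowest point Hnrnph3 at -1.02 (44.1%) and the ends of the x axis at Hnrnph1 (37.1%, -0.62) and Sf3a2 (62.2%, 0.47), and on the right it is -0.19.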

How the data were processed

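Total RNA of 6 libraries (3 static, 3 FSS, grouped by sample title) was sequenced from DNA nanoballs, per the labels' protocols. HISAT and Bowtie2 are listed, without roles, in the submitters' processing notes. The quantifier, build, annotation and strand setting are not given in these sources, so overlapping genes cannot be told apart. The authors deposited one table of 22899 genes, and the values of the 6 per-sample files were identical to it. Of these genes 4828 were blank in every library. The columns are headed as expression with no unit, per the file headers, and the deposited values were taken here as FPKM: totals differ between libraries, and value times transcript length summed to 0.551 to 0.608 times 1000000000 with median and 1.14 to 1.28 times with longest GENCODE M21 transcripts. Counts were not used here. Low values of short genes fell in steps that, with 200 bases taken off each length, correspond to roughly 37000000 to 52000000 fragments per library, an estimate too coarse for counting intervals.

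The 10899 genes that reached 1 FPKM in 3 or more libraries were fitted as log2(FPKM + 1) with limma 3.58.1 in R 4.3.3 (variance trend, two-sided, Benjamini-Hochberg adjustment over all genes, threshold 0.05). The design assumed either counts or FPKM and the FPKM branch was used. Deviations from group means correlated within numbers 1, 2 and 3 at 0.79, 0.66 and 0.87 and across numbers at -0.78 to 0.28, so pairing by number was assumed from these data, as the labels do not state it, and a block was fitted too. On simulated data for this contrast (10899 genes, 50 changed per fold), the fit recovered 0%, 24%, 84% and 96% of genes changed 1.5-, 2-, 4- and 8-fold, and with the block 28%, 72%, 96% and 98%, with 0 and 5 false calls. The simulation assumed the pairing, changed only genes with a mean above 3 on the log2 scale, and held no shift of scale between groups. It therefore does not cover lower genes or calls that move with scaling. As alternatives, the fits were repeated with a pseudocount of 0.1, no filter, a minimum of 5 FPKM, a threshold of 0.01, the block, median-ratio scaling, equal totals, the block with median-ratio scaling, and each library left out.

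The members and lists were chosen with earlier results of these data known. Named are, per gene group, up to 5 members with the smallest unadjusted p and the 2 with the highest mean, members past the threshold, and up to 3 genes per list. All further genes given with values were picked with those values in view. Promoters were searched for 10 words on both strands. Values of 2 genes that the rule names are not reported here, though they stay in the counts.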

Additional observations from a re-analysis of the deposited data

How the results depend on the processing

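No member passed under a pseudocount of 0.1, no filter, a minimum of 5 FPKM, median-ratio scaling, equal totals or a threshold of 0.01, and leaving out single libraries gave no higher and 0 to 1 lower members (Prpf31, without FSS replicate 3, also the 1 lower Prpf gene). With the replicate block 3 members were higher and 14 lower, and after median-ratio scaling as well 10 and 9. By group, the replicate block gave 2 and 7 in the hnRNPs, 0 and 2 in Snrp, 0 and 1 in SF3A, 1 and 1 in SF3B and 0 and 3 in Prpf, and with the scaling 4 and 4, 0 and 1, 1 and 1, 1 and 1, and 4 and 2. The block ended no call among the named genes. The lists gave 2 and 26 (other spliceosome proteins), 0 and 7 (snRNP assembly) and 0 and 6 (hnRNP-type) with the block, and 4 and 11, 2 and 6, and 3 and 2 with both. The 2 lower assembly genes became 0 without a filter or at 0.01, 1 with 5 FPKM or median-ratio scaling, and 0 to 2 with single libraries left out; the hnRNP-type list had 0 to 1 lower. Over all genes, 93 were higher and 94 lower. This became 842 and 2739 with the block, 2092 and 1829 with block and scaling, 158 higher with the scaling, 45 lower with equal totals, 52 and 50 with 5 FPKM, 0 and 0 without a filter, 4 and 1 at 0.01, and 3 to 291 and 0 to 176 with single libraries left out (291 and 176 without FSS replicate 3). The member median (-0.15) was 0.01 with the scaling, with or without the block. The pair medians were -0.03 (pair 1) and 0.04 (pair 3) with it, and -0.16 (pair 3) with equal totals. Between number 3 and the others 8 members were higher: 4 without a filter, 17 with the scaling, 5 with equal totals and 0 to 8 with single libraries left out; the 14 lower became 0 to 14, the 0 without FSS replicate 3. The causes of these changes were not tested. The scaling turned the sign of 11 of 52 members, equal totals of 2, leaving out static replicate 3 of 12, FSS replicate 1 of 8 and the other single libraries of 1 to 4, and the filter and pseudocount of none. Depth is known only roughly and limits low genes such as Gemin4 and Coil more than the members.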

Other observations

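Besides CCGGAAG, 9 other words were searched in the 250 bases before the start sites of the 47 members with RefSeq promoter sequence, on both strands. The GC box core GGGCGG was present in 61.7% of members and 63.4% of tested genes, and CCAAT in 55.3% and 40.9%. The E-box CACGTG, which MYC and its relatives bind, was in 14.9% and 10.1%, and GAANNTTC, part of a heat shock element, in 10.6% and 6.27%. The cAMP-response word TGACGTCA was in 4.26% and 3.03%, the AP-1 word TGAGTCA in 4.26% and 3.97%, and the YY1 word AAGATGGC in 2.13% and 2.41%. The palindromes known to bind NRF1 and BANP were in no member and in 2.01% and 1.06% of tested genes. Some of these words overlap, and a gene with more than 1 start site was counted if any of them held the word. The 47 members include untested genes.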
